A study of Homo sapiens with 6 samples.

Results

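The genes described here encode the proteins of the mitochondrial ribosome, and transcript levels were compared between a HEK293 line carrying a myocilin vector and a HEK293 line carrying a control vector. Members were chosen by symbol: every probe set that the platform annotation gave to exactly 1 gene named MRPL or MRPS with a number and an optional A, B or C. This rule found 133 of the 41751 probe sets of the Affymetrix HG-U133 Plus 2.0 table and 75 of the 18338 genes, of which 48 were MRPL genes (79 probe sets) and 27 were MRPS genes (54 probe sets). The RefSeq table holds 77 protein-coding genes with such symbols, and the remaining 2, MRPL53 and MRPS24, had probe sets shared with a second gene and were not members.

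HEK293 is an established human embryonic kidney cell line, and both lines were stable Tet-On transfectants, in which doxycycline turns on the inserted gene. There were 3 arrays of the myocilin line and 3 of the control line. Both were kept under hygromycin B and G418, and the protocol, worded alike for both, gives 0.2 or 1 µg/ml doxycycline for 48 h without saying which dose each array had. Doxycycline is named in the sample descriptions of the myocilin line only. Because the drug is itself an inhibitor of bacterial-type translation, a difference in exposure between the lines cannot be told apart from the vector. No label says whether a line was 1 clone or whether its arrays came from separate cultures, and the p-values therefore reflect only array-to-array spread, possibly technical. MYOC, the inserted gene, read 0.21, 0.20 and 0.24 on the myocilin arrays and -6.71, -8.32 and -8.29 on the control arrays, in the direction of the labels. Values are centred on the log2 scale with a median of 0 on each array. They show differences of 1 gene between arrays and neither the level of a gene nor whether it lay above background, so the kidney cell markers could not be checked, and less RNA per cell and fewer cells cannot be told apart.

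Mitochondrial ribosomes translate the few proteins encoded by mitochondrial DNA, all of them core subunits of the respiratory chain and ATP synthase. Their RNAs come from the mitochondrial genome, whereas their proteins are made from nuclear genes in the cytosol and imported. Some of these proteins descend from bacterial ribosomal proteins, and others are found only in mitochondrial ribosomes. A small subunit reads the mRNA and a large subunit joins amino acids. In most cases the symbol names the subunit, but human structures place MRPS30 and MRPS18A in the large one.

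Most mitochondrial ribosomal protein genes did not pass the test between the lines, and those that passed were mostly higher in the myocilin line. Of the 75 genes, 13 rose, 3 fell and 59 did not pass (limma, adjusted p under 0.05 over all genes). The share of risen members was 17.3%, against 8.28% of all 18338 genes, and the share of fallen members was 4%, against 7.35% of all genes. The 13 rises ranged from 1.16-fold for MRPS18A to 1.6-fold for MRPS30, so no member reached a 2-fold change. The 3 falls ran from -0.22 for MRPL1 to -0.44 for MRPL30 on the log2 scale. The count of rises changed when single arrays were left out. It was 6 without myocilin array 1 and 8 without myocilin array 2 or 3. Without control arrays 1, 2 and 3 in turn it was 13, 6 and 7. The count of falls was 1 without myocilin array 1 or 2 and 1 without control array 2 or 3. The shares of all genes called in these fits are not given here, so these drops cannot be read as particular to the members. The calls of 6 genes held in all 6 of these fits, the rises of MRPS30, MRPS18B, MRPS2, MRPL18 and MRPL36 and the fall of MRPL30.

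**Figure D1:**
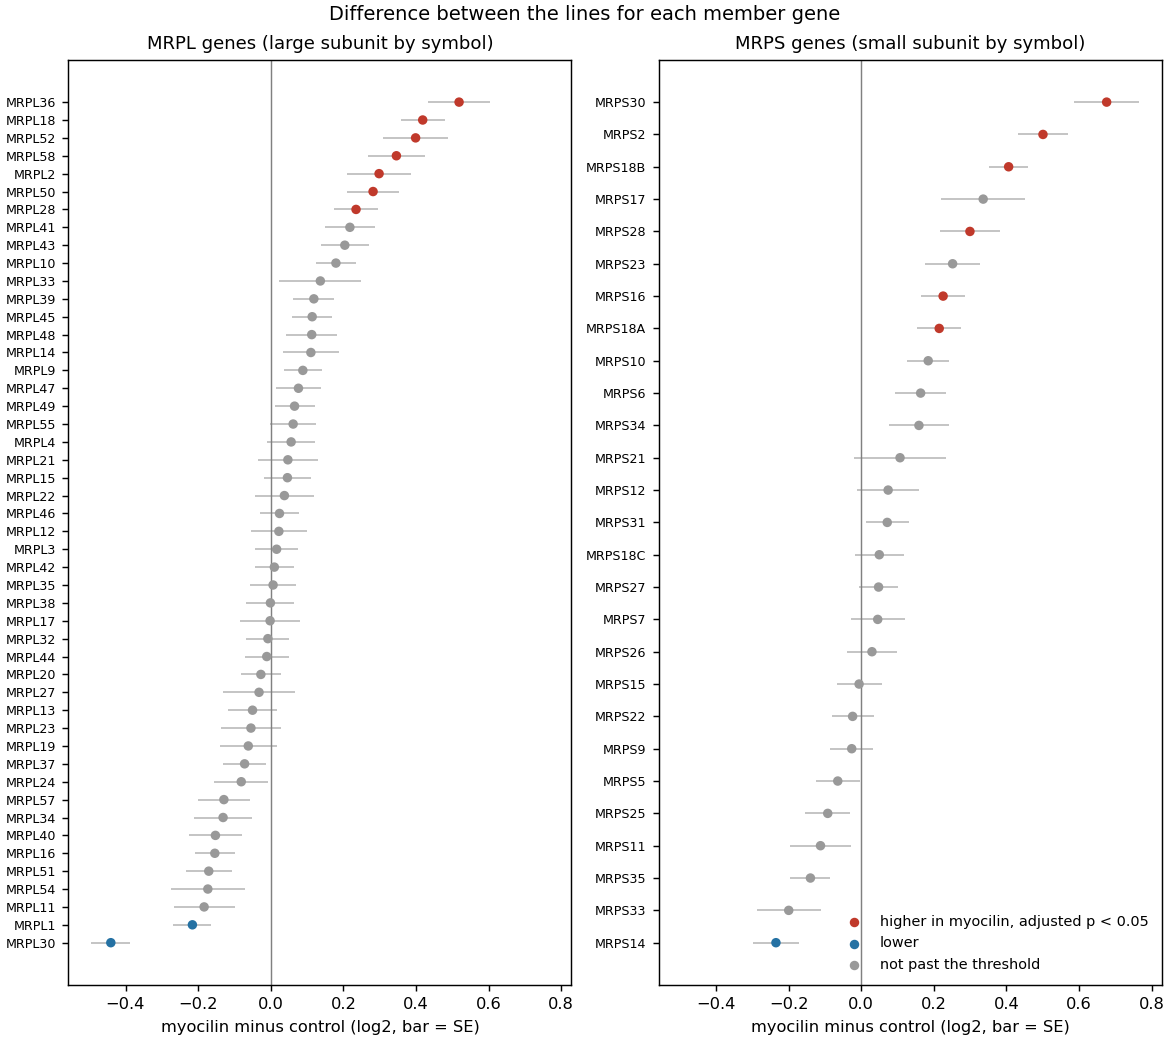
Myocilin minus control difference (log2, x axis) for each of the 48 MRPL genes (left) and 27 MRPS genes (right), with bars for the standard error. Red points rose and blue points fell at adjusted p under 0.05, grey points did not pass, and the called genes run from -0.44 for MRPL30 to 0.68 for MRPS30.

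The promoter sequences of the called genes were taken from RefSeq (GRCh38.p14), as 250 bases before to 50 bases after the first start site listed for each gene. Sequences are shown 5′ to 3′ for the members that carry both the largest differences and the letters discussed next. Capitals mark matches to CCGGAAG, the core bound by ETS factors such as GABP, to AAGATGGC, a YY1 element, and to a loose form of the NRF1 element (GCGC, a gap of 2 bases and GCGC again), each searched on both strands.
MRPS30, chr5:44808697-44808996, plus strand: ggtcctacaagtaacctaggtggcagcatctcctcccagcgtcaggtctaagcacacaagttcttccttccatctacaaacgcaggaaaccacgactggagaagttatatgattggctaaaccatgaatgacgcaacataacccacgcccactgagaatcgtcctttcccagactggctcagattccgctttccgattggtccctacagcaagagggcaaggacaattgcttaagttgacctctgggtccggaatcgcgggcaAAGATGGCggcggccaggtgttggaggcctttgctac
MRPS18B, chr6:30617590-30617889, plus strand: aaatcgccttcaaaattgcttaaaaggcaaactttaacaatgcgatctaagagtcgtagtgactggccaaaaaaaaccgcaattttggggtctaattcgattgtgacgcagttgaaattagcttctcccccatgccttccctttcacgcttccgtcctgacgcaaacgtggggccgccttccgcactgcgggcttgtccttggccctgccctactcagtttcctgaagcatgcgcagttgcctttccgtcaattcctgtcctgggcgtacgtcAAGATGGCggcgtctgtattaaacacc
MRPL36, chr5:1799788-1800087, minus strand: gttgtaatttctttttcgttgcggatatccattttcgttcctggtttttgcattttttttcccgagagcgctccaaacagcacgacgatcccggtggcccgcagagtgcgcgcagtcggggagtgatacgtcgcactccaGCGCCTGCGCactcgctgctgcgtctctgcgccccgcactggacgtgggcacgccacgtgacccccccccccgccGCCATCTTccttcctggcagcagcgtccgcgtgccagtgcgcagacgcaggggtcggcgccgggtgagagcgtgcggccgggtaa
MRPL52, chr14:22829637-22829936, plus strand: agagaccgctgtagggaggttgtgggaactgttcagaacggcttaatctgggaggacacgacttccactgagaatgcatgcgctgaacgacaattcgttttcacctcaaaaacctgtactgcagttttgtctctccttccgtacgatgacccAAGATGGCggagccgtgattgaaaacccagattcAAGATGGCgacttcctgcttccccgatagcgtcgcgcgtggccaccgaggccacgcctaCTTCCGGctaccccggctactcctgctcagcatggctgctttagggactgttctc
MRPL30, chr2:99180934-99181233, plus strand: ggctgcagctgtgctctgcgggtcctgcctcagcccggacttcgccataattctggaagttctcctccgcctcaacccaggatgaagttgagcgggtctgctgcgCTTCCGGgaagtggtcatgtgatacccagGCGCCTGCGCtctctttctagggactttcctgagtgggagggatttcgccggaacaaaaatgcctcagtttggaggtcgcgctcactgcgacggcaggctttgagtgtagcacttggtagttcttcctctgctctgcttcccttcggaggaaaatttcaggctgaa
No capitals appear in the same window of MRPL18, MRPS2, MRPL1 or MRPS14, which says only that these letters were not found there.

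Promoters of 67 of the 75 members were in the table; MRPL2, MRPL10, MRPL13, MRPL15, MRPL21, MRPL23, MRPL35 and MRPS28 were not. The YY1 letters AAGATGGC were present in 19 of 67 member promoters (28.4%), against 4.12% of 14401 promoters of measured genes. Of the 11 risen members with a promoter, 6 held them, namely MRPS30, MRPS18B, MRPS18A, MRPL36, MRPL50 and MRPL52, and so did 0 of the 3 fallen members and 13 of the 53 that did not pass (24.5%). Read the other way, 6 of 19 members with the letters rose, against 5 of 48 without them, and among all measured genes 11.8% of those with the letters rose, against 8.08% of those without. In 14 of these 19 members a match lay across or after the start site, as at bases 13 to 20 after it in MRPS30 and 23 to 30 in MRPS18B. In those positions the letters can overlap the start codon, ATG, and the codon after it. The ETS letters CCGGAAG were present in 28 of 67 member promoters (41.8%), against 14.9% of measured genes, and in 5 of the 11 risen members. The loose NRF1 letters were in 9 member promoters (13.4%), against 12.7% of measured genes, and its strict form, with AT in the gap, in 1 (1.49%, against 1.84%). CCAAT, the NF-Y box, was in 20 (29.9%, against 36.1%) and TATAAA, the TATA box, in 2 (2.99%, against 8.45%). These counts are descriptions of letters, without a test. The factors' own genes did not pass: YY1 differed by -0.10, GABPA by -0.10 and NRF1 by 0.09 (adjusted p = 0.306, 0.335 and 0.379 in limma).

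In the large subunit by symbol, 7 of 48 genes rose (14.6%) and 2 fell (4.17%), beside 8.28% and 7.35% of all genes. MRPL36, which encodes one of the smallest proteins of the subunit and has a bacterial homologue, read 0.023, 0 and 0.14 on the myocilin arrays and -0.35, -0.66 and -0.38 on the control arrays. The groups did not overlap, and control array 2 was the lowest of all. The difference was 0.52 ± 0.09 (log2, SE), or 1.43-fold (adjusted p = 0.00457). MRPL18, a homologue of a bacterial rRNA-binding protein, read 0.34, 0.26 and 0.36 on the myocilin arrays and -0.05, -0.18 and -0.07 on the control arrays. All myocilin values lay above all control values, with a difference of 0.42 ± 0.06 (adjusted p = 0.00233). MRPL52, a protein found only in mitochondrial ribosomes, read 0.15, 0.05 and 0.04 in the myocilin line and -0.24, -0.53 and -0.19 in the control line. It rose by 0.40 ± 0.09 (adjusted p = 0.0163), and by 0.30 without control array 2, but was not called without myocilin array 1 (adjusted p = 0.0647). MRPL58, a peptidyl-tRNA hydrolase that also frees stalled ribosomes, read 0.05, -0.03 and 0.27 in the myocilin line and -0.20, -0.25 and -0.29 in the control line. Its rise of 0.35 ± 0.08 (adjusted p = 0.0191) was not called without control array 2 or 3 (adjusted p = 0.056 and 0.0605).

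The other risen genes of the large subunit moved less. MRPL2, whose bacterial counterpart lies by the peptidyl transferase centre, rose by 0.30 ± 0.09 with an adjusted p of 0.0499, at the threshold itself. MRPL50, a protein particular to mitochondria, rose by 0.28 ± 0.07 (adjusted p = 0.0286), and MRPL28, with a bacterial homologue, by 0.23 ± 0.06 (adjusted p = 0.0299). Of the 6 fits that left out an array, 2 kept the call of MRPL2, 2 that of MRPL50 and 1 that of MRPL28. All 3 calls were lost without myocilin array 1 or control array 2. Those of MRPL2 and MRPL28 were also lost without myocilin array 3 or control array 3, those of MRPL28 and MRPL50 without myocilin array 2, and that of MRPL50 without control array 1.

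Of the fallen genes of the large subunit, MRPL30 had the lowest p of all members. It encodes a homologue of a bacterial large subunit protein and read -0.0046, -0.060 and -0.00019 on the myocilin arrays and 0.43, 0.43 and 0.39 on the control arrays. The spread within each line was small beside the gap, and the difference was -0.44 ± 0.05 (adjusted p = 0.00101). MRPL1, which forms the mobile stalk at the exit side for tRNA, read -0.14, -0.09 and -0.11 in the myocilin line and 0.09, 0.11 and 0.10 in the control line. Its difference of -0.22 ± 0.05 (adjusted p = 0.0234) came with little spread in either line, and the call was lost in every fit that left out an array.

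In the small subunit by symbol, 6 of 27 genes rose (22.2%) and 1 fell (3.7%), beside 8.28% and 7.35% of all genes. MRPS30 changed most among all members: it read 0.16, 0.16 and 0.30 on the myocilin arrays and -0.37, -0.67 and -0.37 on the control arrays. Structures place its protein in the large subunit, where it has no bacterial counterpart. The groups were far apart, and the difference was 0.68 ± 0.09, or 1.6-fold (adjusted p = 0.00141). MRPS2, a protein with a bacterial homologue that sits between the head and the body of the subunit, read 0.16, 0.27 and 0.31 in the myocilin line and -0.22, -0.35 and -0.18 in the control line. It rose by 0.50 ± 0.07 (adjusted p = 0.00178). MRPS28, a further small subunit protein, rose by 0.30 ± 0.08 (adjusted p = 0.0373) and MRPS16, with a bacterial homologue, by 0.23 ± 0.06 (adjusted p = 0.0368). Both calls were lost in 5 of the 6 fits that left out an array. MRPS14, also of bacterial descent, read -0.05, -0.09 and -0.19 in the myocilin line and 0.07, 0.12 and 0.19 in the control line. Its fall of 0.23 ± 0.06 (adjusted p = 0.035) came from 1 of 2 probe sets, as described further on, and the call was kept in 1 of the 6 fits, that without control array 1.

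The 3 human paralogues of the bacterial protein S18 occupy different places in the ribosome: MRPS18C takes the place of the bacterial protein, MRPS18B lies elsewhere in the small subunit and MRPS18A in the large subunit. MRPS18B read 0.45, 0.42 and 0.39 on the myocilin arrays and 0, -0.0020 and 0.044 on the control arrays. The groups were well separated, with a difference of 0.41 ± 0.05 (adjusted p = 0.00145), and it was the only risen member also called by a Welch test per gene (adjusted p = 0.0474). MRPS18A rose by 0.21 ± 0.06 (adjusted p = 0.0402), from values of 0.14, 0.15 and 0.28 in the myocilin line and 0.0083, -0.049 and -0.031 in the control line. The call of MRPS18A was lost in all 6 fits that left out an array. MRPS18C differed by 0.05 ± 0.07 with overlapping groups (adjusted p = 0.673), and its 3 probe sets read -0.05, -0.0064 and 0.20. MRPS18A and MRPS18B lie on chromosome 6 and MRPS18C on chromosome 4; differences between the paralogues were not tested.

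**Figure D2:**
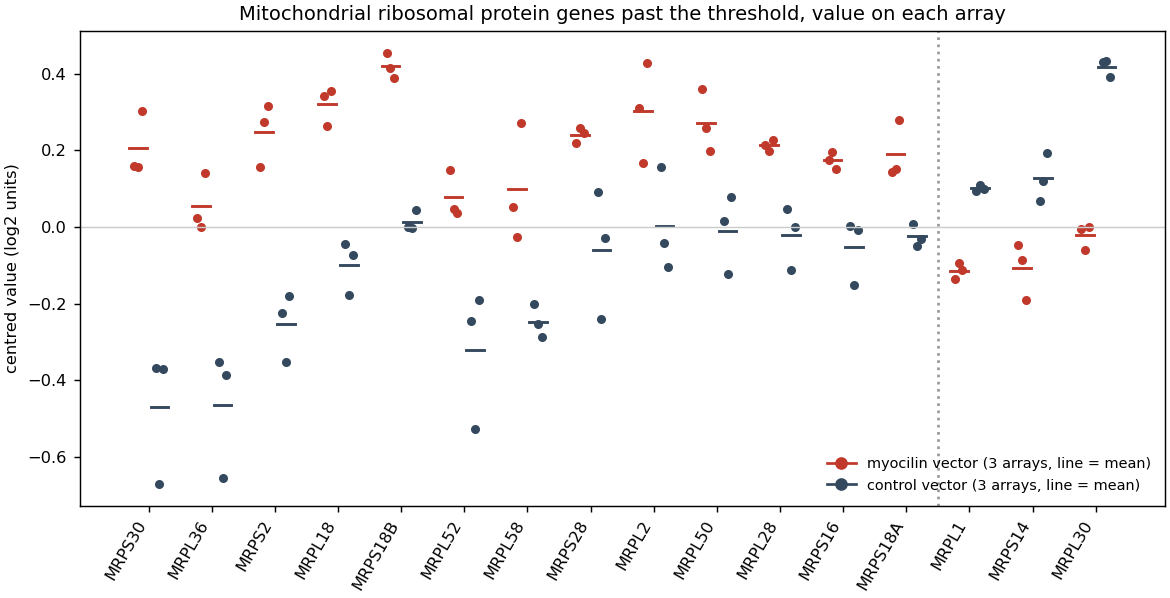
Centred values (log2 units, y axis) of the 16 called genes on each array, red for the myocilin line and dark blue for the control line, with a line at each mean of 3 arrays. The 13 genes left of the dotted line rose and the 3 right of it fell. The groups overlapped in none of the 16, but these were chosen by a test on the same arrays, so this is no further support. Over all genes, the myocilin arrays lay entirely above the control arrays in 18.9% and entirely below in 16%.

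Among the 59 genes that did not pass, 35 differed by no more than 0.1 log2 units in either direction. Of all 75 members, 40 differed by more than that, beside 9015 of all 18338 genes. The myocilin arrays lay entirely above the control arrays in 24 of the 75 members (32%), against 18.9% of all genes. They lay entirely below them in 6 (8%), against 16% of all genes. Of the genes not called, 11 were in the first class and 3 in the second. The largest differences without a call were those of MRPS17 at 0.34 ± 0.12, MRPS23 at 0.25 ± 0.07, MRPL41 at 0.22 ± 0.07, MRPL43 at 0.20 ± 0.07 and MRPS33 at -0.20 ± 0.09 (adjusted p of 0.0823, 0.0501, 0.0645, 0.0675 and 0.163 in limma). MRPS17, a homologue of a bacterial small subunit protein, illustrates the spread, since it read 0.04, 0.03 and 0.22 in the myocilin line and 0, -0.50 and -0.21 in the control line. MRPS10 at 0.18, MRPL10 at 0.18, MRPL11 at -0.18, MRPL54 at -0.17 and MRPS6 at 0.16 also missed the threshold. MRPL12, which recruits translation factors to the stalk and also binds the mitochondrial RNA polymerase, differed by 0.02 ± 0.08 (adjusted p = 0.883). MRPS12, part of the decoding centre, differed by 0.07 ± 0.08 (adjusted p = 0.613). Without control array 2 these read -0.07 and -0.0073, so neither has a settled direction.

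Read at the level of single probe sets, 13 of 133 rose (9.77%, against 5.46% of all 41751 probe sets) and 3 fell (2.26%, against 5.56%). These totals equal those of the genes but do not come from the same genes. MRPL1, MRPL28, MRPS16 and MRPS28 were called as genes without a called probe set. The only probe sets of MRPL1, MRPL28 and MRPS28 had adjusted p of 0.067, 0.0685 and 0.0629 in limma. The myocilin arrays lay entirely above the control arrays in 35 of the 133 member probe sets, against 15.5% of all probe sets. They lay entirely below them in 11 of the 133, against 14.8%. The count of rises was 5 without myocilin array 1 or control array 2 and 8 without myocilin array 3 or control array 3. The shares of all probe sets called in those fits are likewise not given here. Of the members, 40 had 1 probe set and 35 had several, up to 5. No gene had probe sets called in opposite directions, though few probe sets were called at all. Of the 35 genes with several, 19 had probe set differences of both signs, and 6 had a spread over 0.3. Both probe sets of MRPS18B rose, by 0.36 and 0.45, and of the 3 of MRPL30, 2 fell, at -0.65 and -0.38, while the last read -0.30 (adjusted p = 0.0592). MRPL50 rested on 2 probe sets at 0.46 and 0.43, while its other probe set read -0.05. The disagreement was widest for MRPS14, of which 1 probe set read -0.14, -0.11 and -0.52 in the myocilin line and 0.04, 0.35 and 0.42 in the control line, a difference of -0.53 (adjusted p = 0.03), whereas its other probe set differed by 0.06. In MRPL52, 1 probe set rose by 0.52 and the other read 0.28 without passing (adjusted p = 0.295). MRPL43, not called as a gene, had 1 of 3 probe sets past the threshold, at 0.30 (adjusted p = 0.0479).

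**Figure D3:**
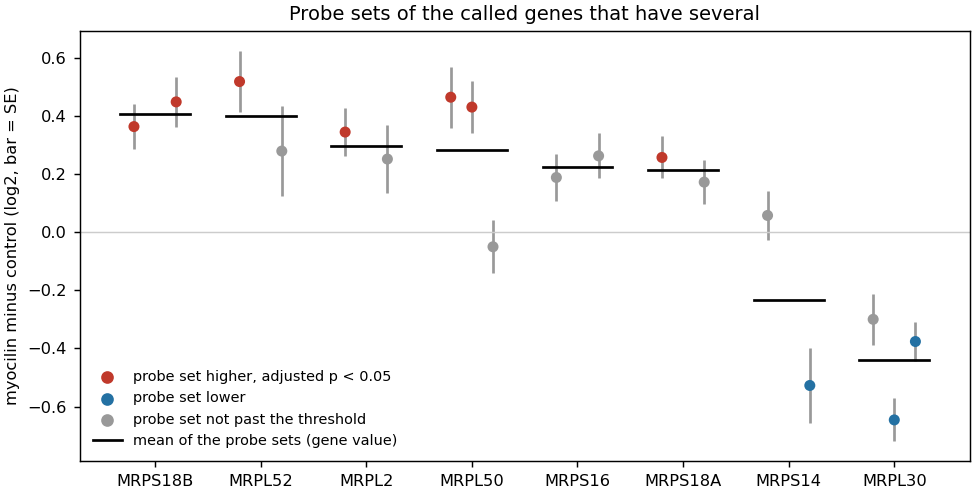
Myocilin minus control difference (log2, y axis, bars for SE) of each probe set of the 8 called genes that have several, with a black line at the gene value, their mean. The probe sets of MRPS18B at 0.36 and 0.45 lie close together, whereas those of MRPS14 at 0.06 and -0.53 lie on either side of 0.

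The median difference was 0.02 for the 48 MRPL genes and 0.07 for the 27 MRPS genes, beside 0.02 for all genes, and without control array 2 the medians were -0.0068 and 0.02. Rises were 14.6% of MRPL genes and 22.2% of MRPS genes, beside 8.28% of all genes. The mean of the MRPS genes minus that of the MRPL genes was 0.02, 0.06 and 0.02 on the myocilin arrays and -0.05, -0.04 and -0.0064 on the control arrays, so that the lines did not overlap. With MRPS30 and MRPS18A counted in the large subunit, as the structures have it, this difference was 0.0094, 0.04 and -0.0067 on the myocilin arrays and -0.03, -0.01 and 0.02 on the control arrays, and the lines overlapped. By structure 9 of 49 large subunit genes rose (18.4%) and 2 fell (4.08%). Of 25 small subunit genes 4 rose (16%) and 1 fell (4%), beside 8.28% and 7.35% of all genes. MRPL55 was not assigned a subunit by structure and was left out of this split and its array means. The split by descent gave 6 rises (20%) and 0 falls among 30 proteins classed as mitochondria-specific. Among 44 classed as having bacterial homologues there were 7 rises (15.9%) and 3 falls (6.82%), beside 8.28% and 7.35% of all genes. The medians of these classes were 0.06 and 0.04. The first class includes the risen MRPS18A and MRPS18B, although they are paralogues of a bacterial protein, and the risen hydrolase MRPL58. The split therefore depends on how such genes are classed. MRPL55 was placed in neither class.

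Members tended to share an order of the arrays within each line. Control array 2 held the lowest of the 3 control values in 54 of 75 members, although it did so in 35.7% of all genes, and myocilin array 3 held the highest myocilin value in 53 of 75, against 40.4% of all genes. The mean over the 75 members was 0.02, 0.0095 and 0.08 on the myocilin arrays and 0.03, -0.11 and -0.0047 on the control arrays. Control array 1 thus lay above myocilin arrays 1 and 2, so the family means of the lines overlapped. Control array 2 was the lowest control in 11 of the 13 risen genes. It was also the lowest control for the mean of 60 cytosolic ribosomal protein genes (-0.08) and of 77 subunits of oxidative phosphorylation (-0.12). Without control array 2 the difference was 0.58 for MRPS30, 0.45 for MRPS2, 0.42 for MRPL36, 0.40 for MRPS18B, 0.38 for MRPL18 and 0.30 for MRPL52, all 6 still called. The other 7 risen genes read between 0.18 for MRPS16 and 0.34 for MRPL58 and were not called. What set the array apart was not tested.

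**Figure D4:**
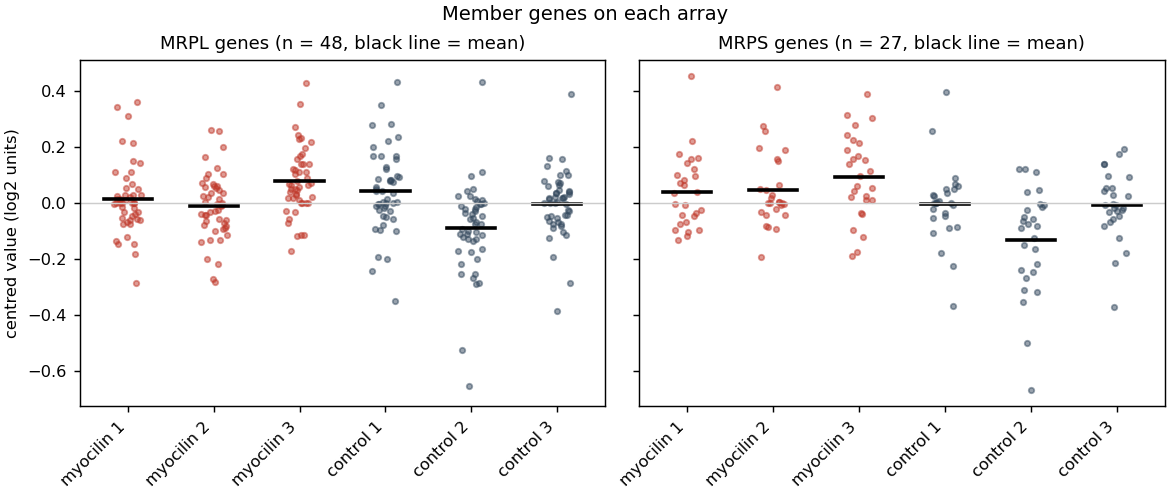
Centred values (log2 units, y axis) of the 48 MRPL genes (left) and 27 MRPS genes (right) on each array, with black lines at the mean. Control array 2 has the lowest mean in both panels, -0.09 and -0.13, and myocilin array 3 the highest, 0.08 and 0.09.

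The members lie on 21 chromosomes, and the called ones were spread over 11. Chromosome 6 held 6 members, and MRPL18, MRPS18B, MRPL2 and MRPS18A of these rose, with a median of 0.26. The other 1000 measured genes of chromosome 6 had a median of 0.09, and 22.4% of them rose. Away from chromosome 6, 9 of 69 members rose (13%), against 7.45% of all genes there. Setting chromosome 6 aside did not remove all raised chromosomes. Of the other genes, 15.8% rose on chromosome 9 (MRPS2 and MRPL50), 21.2% on 10 (MRPS16) and 27.5% on 16 (MRPL28). The shares were 11.6% on chromosome 8 (MRPS28), 11.1% on 17 (MRPL58) and 4.76% on 14 (MRPL52). Chromosome 5 carried both genes with the largest rises, MRPS30 and MRPL36. Its other 807 genes had a median of 0.0061 and 7.19% of them rose. The fallen MRPL30, MRPL1 and MRPS14 lie on chromosomes 2, 4 and 1. Of the other genes there, 10.8%, 9.61% and 8.33% fell, beside 7.35% of all genes. A value over a whole chromosome does not describe the region around a gene. MRPL28 and MRPS34, the members on chromosome 16, differed by 0.23 and 0.16, beside a median of 0.14 for its other 775 genes. When the median of the 50 nearest genes was subtracted, 7 members rose (9.33%), against 5.34% of all genes. In that fit 3 members fell, and the share of all genes that fell is not given here. The rises of MRPL2, MRPL28, MRPL50, MRPS16, MRPS18A and MRPS28 and the fall of MRPS14 were then not called, while MRPL40 was called lower.

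**Figure D5:**
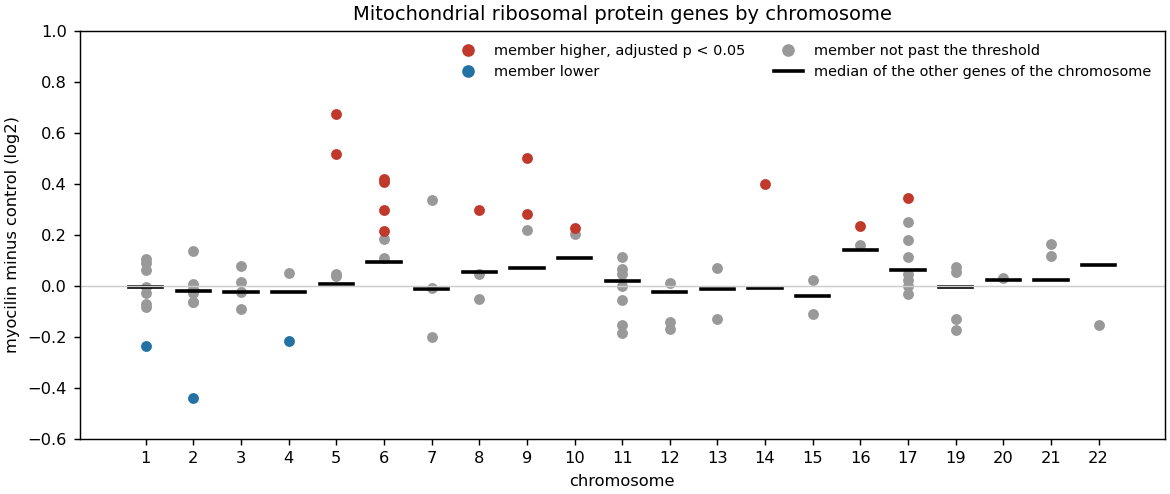
Myocilin minus control difference (log2, y axis) of each member by chromosome (x axis), red for rises, blue for falls and grey for genes that did not pass, with a black bar at the median of the other genes of that chromosome. The 4 risen members of chromosome 6 stand above a bar at 0.09 and the 2 of chromosome 5 above a bar near 0.

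Several members share a promoter region with a gene that is read in the opposite direction. Within 1000 bases upstream of the start site, 17 members had such a measured neighbour in RefSeq, MRPL46 and MRPS11 being neighbours of each other. MRPS18B rose while its neighbour PPP1R10, a regulator of protein phosphatase with a start site 597 bases away, fell by 0.23 ± 0.05 (adjusted p = 0.0195). MRPL30 fell, whereas MITD1, 126 bases away, differed by -0.10 ± 0.05 (adjusted p = 0.254). For MRPL50 the neighbour ZNF189 differed by 0.0070, and for MRPS2 the neighbour PIERCE1 differed by 0.11, neither past the threshold. The remaining fallen neighbour was PTCD2, a mitochondrial RNA-binding protein, at -0.24 beside MRPS27 at 0.05.

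Other genes of mitochondrial translation went both ways. Of the mitoribosome proteins with other symbols, DAP3, which binds GTP in the small subunit, differed by 0.02, and PTCD3, CHCHD1 and GADD45GIP1 also did not pass. In the list of assembly and rRNA modification factors, 4 of 29 rose (13.8%) and 2 fell (6.9%), beside 8.28% and 7.35% of all genes. TFB1M, which dimethylates the rRNA of the small subunit, read 0.41, 0.34 and 0.44 in the myocilin line and -0.01, -0.02 and 0.02 in the control line, a rise of 0.40 ± 0.06 (adjusted p = 0.00182). MRM1, a methyltransferase of large subunit rRNA, rose by 0.40 ± 0.06. YBEY, an RNA-processing nuclease, fell by 0.34 ± 0.05, and AFG3L2, a protease of the inner membrane that matures MRPL32, fell by 0.36 ± 0.07. MRM3, a further rRNA methyltransferase, and the helicase DDX28 were the other rises, at 0.28 and 0.26, and were named after their values were seen. TFB1M lies on chromosome 6, DDX28 on chromosome 16, and MRM1 and MRM3 on chromosome 17. On these chromosomes 22.4%, 27.5% and 11.1% of the genes outside the family rose. Of the fallen genes, YBEY lies on chromosome 21, where 5.21% of the genes outside the family fell. AFG3L2 lies on chromosome 18, which holds no member and whose share is not given here.

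Among 19 translation factors 3 rose (15.8%) and 2 fell (10.5%), beside 8.28% and 7.35% of all genes. The elongation factor TSFM fell by 0.36 ± 0.07 and MTFMT, which formylates the initiator tRNA, by 0.30 ± 0.06. The release factor MTRF1L rose by 0.23 ± 0.05 and QRSL1, a subunit of the enzyme that makes glutaminyl-tRNA, by 0.24 ± 0.06. With the cross-matching _x_at and _s_at probe sets left out, MTRF1L read -0.03. TACO1, which aids translation of a cytochrome oxidase subunit, also rose and was named after its value was seen, at 0.28. Of 23 genes of mitochondrial transcription and RNA processing 3 rose (13%) and 2 fell (8.7%), led by MTPAP, the mitochondrial poly(A) polymerase, at 0.45 ± 0.06, the helicase SUPV3L1 at 0.30 ± 0.07, the tRNA-processing subunit HSD17B10 at -0.34 ± 0.07 and PTCD2. The last rise was that of FASTKD3, at 0.25, named after its value was seen. Regulators of mitochondrial biogenesis had 3 rises (27.3%) and 1 fall (9.09%) among 11. The coactivator PPRC1 read 0.52, 0.48 and 0.47 in the myocilin line and -0.05, -0.11 and 0 in the control line, a rise of 0.54 ± 0.06 (adjusted p = 0.000504). MYC, a growth regulator that acts on many genes of ribosomes and mitochondria, rose by 0.67 ± 0.08, PPARGC1B by 0.26 ± 0.06, and CREB1 fell by 0.23 ± 0.05. Of the risen genes, MTRF1L and QRSL1 lie on chromosome 6, MTPAP, SUPV3L1 and PPRC1 on 10, MYC on 8 and TACO1 on 17. On these chromosomes 22.4%, 21.2%, 11.6% and 11.1% of the genes outside the family rose. FASTKD3 and PPARGC1B lie on chromosome 5, where 7.19% did. Of the fallen genes, TSFM lies on chromosome 12, MTFMT on 15, PTCD2 on 5 and CREB1 on 2. In that order, 10.8%, 13%, 9.29% and 10.8% of the genes outside the family fell there. HSD17B10 lies on the X chromosome, whose share is not given here.

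Of 60 cytosolic ribosomal protein genes 2 rose (3.33%) and 1 fell (1.67%), with a median of 0.04: RPL37 by 0.42 ± 0.06, the RPL7-like gene RPL7L1 by 0.31 ± 0.06 and RPS23 at -0.24 ± 0.06. RPL7L1 lies on chromosome 6, and RPL37 and RPS23 on chromosome 5. Of 77 nuclear-encoded subunits of oxidative phosphorylation 1 rose (1.3%) and 4 fell (5.19%), beside 8.28% and 7.35% of all genes, with a median of 0.04: ATP5MK at 0.63 ± 0.18, named after its value was seen, NDUFV2 at -0.55 ± 0.06, ATP5MC3 at -0.30 ± 0.06, NDUFS1 at -0.29 ± 0.06 and COX7A2L at -0.21 ± 0.06. For the called subunits no chromosome share is given here. The 13 rises among 75 mitochondrial ribosomal protein genes stand beside these counts as a description, since no test between the lists was made. The medians were alike, at 0.046 for the 75 members, 0.042 for the cytosolic ribosomal protein genes and 0.039 for the oxidative phosphorylation subunits. Differences were positive in 61.3% of members, 68.3% of cytosolic ribosomal protein genes, 54.5% of those subunits and 55.3% of all genes.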

How the data were processed

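Total RNA of 6 samples was hybridised to Affymetrix HG-U133 Plus 2.0 arrays, 3 per line, grouped by source name. The deposited values are on a log scale and were read as log2; their base and the authors' background correction, summarisation, centring and normalisation were not stated in the labels read. The median was 0 on each array, with an exact 0 on at least 1 array for 57.3% of probe sets.

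Annotation named 37460 probe sets with 1 gene. Probe sets were averaged per gene. Lines were compared, myocilin minus control, with limma 3.58.1 (lmFit, eBayes, two-sided) in R 4.3.3 over all 18338 genes and, separately, all 41751 probe sets, adjusted by Benjamini-Hochberg and called under 0.05. The fit was tested on simulated data. Named genes were all called members, members with a called probe set, the 5 largest uncalled differences per subunit, listed landmarks and up to 4 called genes per list. Members and lists were chosen with earlier results of these data known. Alternatives were quantile normalisation, trend and robust fitting, array weights, probe set choices, a Welch test, chromosomal neighbours subtracted, subunit by structure, current symbols and each array left out. The number of arrays limits precision.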

Additional observations from a re-analysis of the deposited data

How the results depend on the processing

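Leaving out 1 array at a time gave 6 to 13 member genes higher and 1 to 2 lower, and 5 to 12 probe sets higher and 2 to 3 lower. Array weights kept all 16 calls, quantile normalisation 15 and trend with robust fitting 14. With _x_at and _s_at probe sets left out, 12 of the 16 genes were measured and all 12 stayed called, with 7 probe sets higher, and the median of the small subunit genes was 0.16 over 16 genes. With 1 probe set per gene by ID, 10 of the 16 calls were kept and MRPS14 changed sign. The calls of MRPL1, MRPL28, MRPL30, MRPS16 and MRPS28 were lost, that of MRPL30 at a limma adjusted p of 0.0541. In that setting 0 members were lower in limma, though 6 were at an unadjusted p under 0.05. The Welch test, with few degrees of freedom, called 1 member gene higher, 1 lower, 0 probe sets higher and 0 lower. At an unadjusted p under 0.05 it had 15 genes and 22 probe sets higher and 5 and 8 lower, against 20, 30, 7 and 10 in limma. For the left-out arrays, the probe set choices and the Welch test, the shares called over all genes or probe sets are not given here. With 50 chromosomal neighbours subtracted, 7 member genes were higher (9.33%, against 5.34% of all genes). Signs turned for MRPS14 at 0.058, MRPS18C at -0.046 and RPS23 at 0.012 with 1 probe set per gene, for MTRF1L at -0.026 with _x_at and _s_at probe sets left out, for MRPL12 at -0.066 and MRPS12 at -0.0073 without control array 2 (up to 0.077 and 0.13 without control array 3), and for MRPL12 at -0.046 with neighbours subtracted. The causes of these turns were not tested, beyond the change of probe set or array itself. Current symbols changed nothing, and assigning subunits by structure gave medians of 0.02 and 0.05. No paired analysis was possible because the titles number the arrays 1 to 3 and 7 to 9, with no number shared between the lines.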

Other observations

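KGD4, listed in older annotation as MRPS36 and now known as a subunit linked to the oxoglutarate dehydrogenase complex, read 0.04, -0.05 and 0 on the myocilin arrays and 0.15, -0.33 and -0.02 on the control arrays, and differed by 0.07 (limma adjusted p = 0.735). It was not a member by its current symbol. The 3 probe sets that name a gene of the family together with a second gene did not pass: MRPL51 with SPTLC1 differed by -0.26, MRPS24 with its read-through gene by -0.03 and MRPL53 with CCDC142 by -0.14.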
